A study of Homo sapiens with 16 samples.

Results

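The lysosome genes described here are 40 genes chosen by name, among them 11 cathepsins and related proteases, 9 glycosidases, 8 sulfatases, lipid hydrolases and phosphatases, 4 lipid-binding or lipid-transfer proteins, 6 membrane proteins, the regulator *TFEB* and the calcium channel *MCOLN1*. They were required to hold at least 10 counts in at least 3 of 16 RNA-Seq libraries of MUTZ-3 cells, and 39 of the 40 did, against 18597 of the 60623 genes in the count tables. *CTSL* did not pass, with 4 counts in the shEVI1-2531 library of day 3 and 0 counts in the other 15 libraries. The rule used no difference between conditions, but the genes were chosen with earlier results of these data known. Counts of members called below therefore describe this list and are no independent test of it.

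Lysosomes are acidic organelles in which hydrolases break down proteins, glycans, lipids and nucleic acids delivered by endocytosis, phagocytosis and autophagy. Their membrane is lined by heavily glycosylated proteins such as *LAMP1* and *LAMP2*, and a proton pump keeps the lumen acidic. *TFEB*, a basic helix-loop-helix factor of the MiT/TFE family, activates many lysosomal genes through the CLEAR element, an extended E-box in their promoters, and *MCOLN1* releases calcium from the lysosome. Monocytes and macrophages are rich in lysosomes, and lysosomal proteases and lipases are abundant in these cells.

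MUTZ-3 is a human acute myeloid leukaemia (AML) line with inv(3), a rearrangement that drives *EVI1* (counted in the tables as *MECOM*). It was grown with GM-CSF and medium conditioned by another cell line. In the PARP inhibitor (PARPi) experiment, cells received olaparib at 10 µM, talazoparib at 1 µM or the vehicle DMSO and were harvested after 12, 24 or 48 h, and untreated cells were taken at 0 h. In the knockdown experiment, cells were transduced with a pLKO.1 lentivirus for a non-targeting control (NTC), shEVI1-2531 or shEVI1-2532, selected with puromycin and harvested on day 3 or day 6. There is 1 library for each of the 16 conditions and thus no replicate of any. P-values rest on the spread left between these libraries after the time point or day and the treatment are fitted. The fit shares this spread between genes, so a p-value does not rest on the spread of 1 gene alone. The inhibitors share their DMSO libraries and the shRNAs share their NTC libraries.

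The libraries of the PARPi experiment held 55999673 to 72681943 counts and those of the knockdown experiment 95523038 to 120716213, and mitochondrial genes took 1.77 to 3.37% of the former. In the knockdown they took 2.49 and 3.395% with NTC on days 3 and 6, 3.05 and 2.97% with shEVI1-2531 and 3.996 and 4.21% with shEVI1-2532, so that this share was highest with the shRNA with the larger changes described below, and its part in them was not tested. As a check of the labels, *MECOM* was at 51.1, 50.9 and 63.6 CPM (counts scaled to the total of the library) with DMSO at 12, 24 and 48 h, at 46.1, 40.8 and 21.04 with olaparib and at 46.8, 31.4 and 8.54 with talazoparib. It was at 42.4 and 44.2 CPM with NTC on days 3 and 6, at 12.3 and 18.5 with shEVI1-2531 and at 4.51 and 4.03 with shEVI1-2532. The targeted gene was thus lower than NTC in each of the 4 knockdown libraries, and lowest with shEVI1-2532. *CD14*, a monocyte receptor, was at 2.86, 58.3 and 82.2 CPM with DMSO, olaparib and talazoparib at 48 h, and *CD34*, a progenitor antigen, at 432, 138 and 94.5.

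Levels between genes were compared as CPM per kilobase of merged exons, as the median of 16 libraries. *LAPTM5*, a lysosomal membrane protein of blood cells, stood highest at 273, followed by *PSAP*, the precursor of the saposins, at 242 and the tetraspanin *CD63* at 119. *CTSD*, a major aspartic protease of lysosomes, followed at 80.4, and *LAMP1* was at 48.9. At the other end, *CTSK*, the collagen-degrading cathepsin of osteoclasts, was at 0.456, *CD68* at 0.0643 and the asparaginyl protease *LGMN* at 0.0611. These 3 genes held 38 to 112, 4 to 25 and 6 to 34 counts per library, so that only large changes could be detected in them. *CD68* reached 10 counts in 7 of 16 libraries, and 96.7% of its span is shared with another annotated gene on the same strand. Same-strand neighbours also cover most of the spans of *CTSD*, *HEXA*, *NAGLU* and *TPP1*, although these neighbours held few counts. On the opposite strand, *ACP5*, *LIPA*, *NPC1*, *GM2A* and *PPT1* overlap genes with 70 to 68921 counts per library, over 100.0% of the span of *ACP5*, 31.9% of that of *NPC1*, 20.5% of that of *GM2A* and 4.53% of that of *PPT1*. The library kit keeps strand, but whether the counting used it is not given in the sources used here, so values of these members are uncertain to that extent.

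Since *TFEB* acts through promoter E-boxes, the promoters of the members were searched for TCACGTG on either strand (CACGTGA on the other strand, with sites that read the same on both strands counted once). RefSeq promoter windows of GRCh38.p14, which hold 250 bases before and 50 after a transcription start, were matched for 29 of the 40 members. Of these, 7 (24.1%) held the motif, against 4.49% of the 27305 genes in the table and 3.71% of its 35116 windows. They were *CTSA*, *CTSD*, *LAMP1*, *GAA*, *NEU1*, *ARSB* and *MCOLN1*. The *LAMP1* window held 6 sites, and no other window of the table held as many, while *GAA*, *MCOLN1* and *CTSA* held 2 each, and *CTSD*, *NEU1* and *ARSB* held 1. A match describes the letters only and not binding. The element is known from promoters of lysosomal genes, so a higher share among the members is no independent result. The 29 members had 46 windows, and a gene with more windows has more places for a match.

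The stretches with the motif are shown 5′ to 3′ with the motif in capitals, 7 letters, or 8 where the site reads the same on both strands and the stretch holds all of it. For *LAMP1* (chr13:113296989-113297238, plus strand) and *MCOLN1* (chr19:7522374-7522623, plus strand) they are the 250 bases before the start, for *GAA* (chr17:80101331-80101555, plus strand), *NEU1* (chr6:31862823-31863071, minus strand) and *ARSB* (chr5:78986088-78986208, minus strand) those of the 250 bases that lie outside the gene's span in the count tables, and for *CTSA* (chr20:45891289-45891318, plus strand) and *CTSD* (chr11:1763957-1763986, minus strand) the 30 bases around the sites. All are in GRCh38.p14. The sixth *LAMP1* site spans the start itself and is not printed.
LAMP1: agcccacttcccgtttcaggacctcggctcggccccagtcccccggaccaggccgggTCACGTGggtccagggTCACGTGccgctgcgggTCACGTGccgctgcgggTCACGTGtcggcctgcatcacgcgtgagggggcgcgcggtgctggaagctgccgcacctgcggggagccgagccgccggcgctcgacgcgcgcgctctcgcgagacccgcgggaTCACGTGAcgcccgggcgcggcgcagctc
MCOLN1: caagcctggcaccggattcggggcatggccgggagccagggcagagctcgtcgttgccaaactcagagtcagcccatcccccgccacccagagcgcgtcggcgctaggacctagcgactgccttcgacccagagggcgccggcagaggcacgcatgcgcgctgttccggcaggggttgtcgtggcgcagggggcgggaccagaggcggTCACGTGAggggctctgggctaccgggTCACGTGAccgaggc
GAA: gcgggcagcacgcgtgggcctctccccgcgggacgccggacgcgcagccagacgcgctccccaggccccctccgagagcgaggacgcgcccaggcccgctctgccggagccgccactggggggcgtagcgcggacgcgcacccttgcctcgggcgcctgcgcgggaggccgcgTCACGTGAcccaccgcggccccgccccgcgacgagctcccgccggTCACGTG
NEU1: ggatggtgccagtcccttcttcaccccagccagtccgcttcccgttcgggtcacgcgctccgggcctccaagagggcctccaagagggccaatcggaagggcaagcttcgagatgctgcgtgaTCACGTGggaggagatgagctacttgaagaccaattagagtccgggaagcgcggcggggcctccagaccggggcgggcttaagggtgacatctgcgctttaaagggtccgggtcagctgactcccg
ARSB: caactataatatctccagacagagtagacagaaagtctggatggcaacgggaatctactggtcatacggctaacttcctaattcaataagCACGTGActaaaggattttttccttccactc
CTSA: ctgTCACGTGgcgccggagtTCACGTGAct
CTSD: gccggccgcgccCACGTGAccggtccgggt
Most of the *LAMP1* sites lie in a row in the upstream part of the stretch, spaced nearly evenly, and those of *MCOLN1*, *CTSA* and *CTSD* lie within the last 50 bases before the start.

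**Figure D1:**
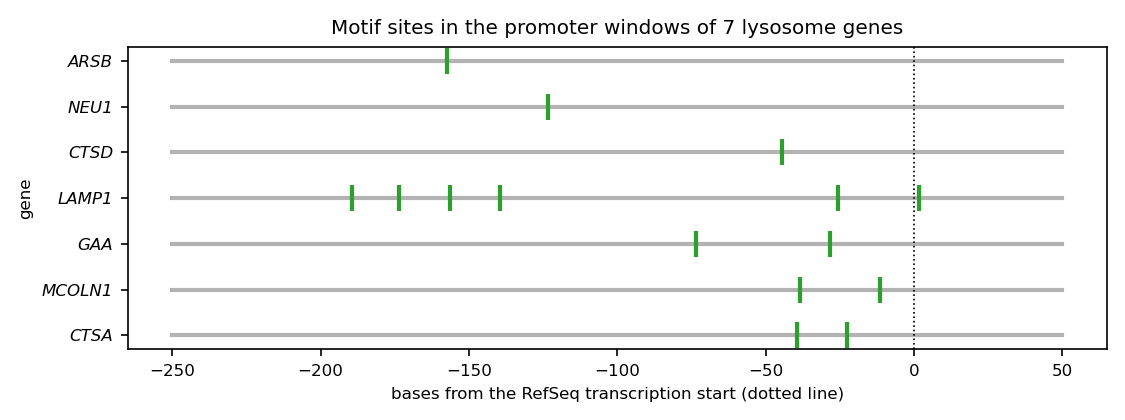
Position of each TCACGTG site (green ticks) in the RefSeq promoter window (grey line, 250 bases before to 50 after the start) of the 7 lysosome genes that hold it. The x axis gives bases from the transcription start, and LAMP1 carries 6 of the 15 sites.

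All 40 lysosome genes together took a larger share of the counts in each treated library than in its control. The share was 0.563, 0.526 and 0.496% with DMSO at 12, 24 and 48 h, 0.5997, 0.667 and 0.820% with olaparib, and 0.637, 0.725 and 1.001% with talazoparib. It was 0.460 and 0.516% with NTC on days 3 and 6, 0.733 and 0.862% with shEVI1-2531, and 1.143 and 1.229% with shEVI1-2532. With the inhibitors the distance to DMSO grew with each time point, while the DMSO share itself became smaller.

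**Figure D2:**
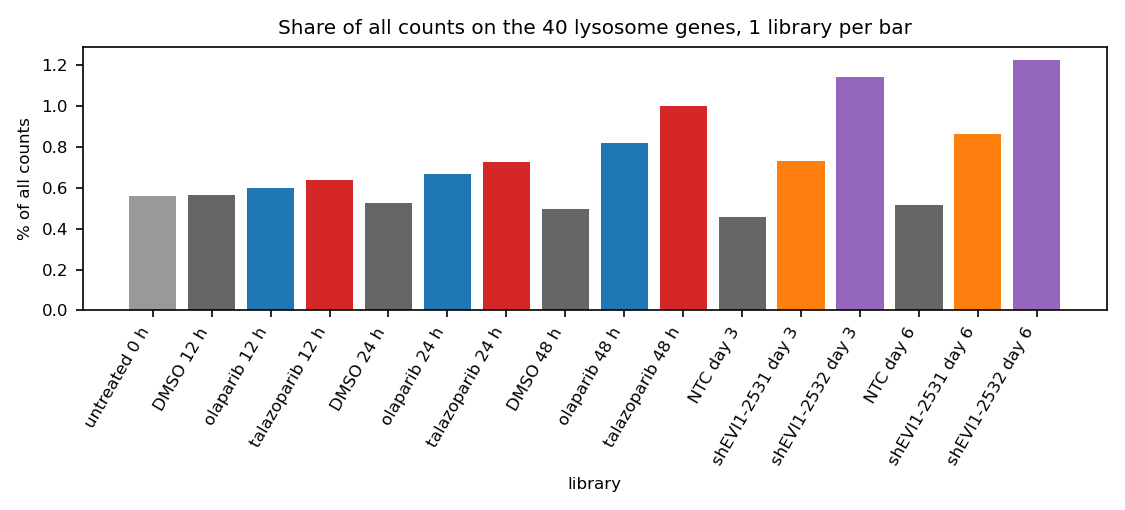
Percentage of all counts that fell on the 40 lysosome genes, with 1 bar per library. The bars of the inhibitors stand above DMSO at each time point and reach 1.001% with talazoparib at 48 h, and those of the shRNAs stand above NTC on both days and reach 1.229%.

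To ask whether PARPi changed the lysosome genes, inhibitor and DMSO libraries were compared with the time point as a block, first as a mean over 12, 24 and 48 h and both inhibitors, and then as a change of the inhibitor effect with each doubling of hours. Median log2 ratios of the 39 members to DMSO of the same hour were 0.13, 0.31 and 0.86 with olaparib and 0.20, 0.45 and 1.31 with talazoparib at 12, 24 and 48 h, while the medians of all genes tested lay near 0. At 12 h, 30 and 31 of the 39 were above DMSO with olaparib and talazoparib, and at 48 h 35 and 36 were. The inhibitor effect moved upward with time for 24 of 39 members and downward for 0 (edgeR's quasi-likelihood test, Benjamini-Hochberg adjusted p under 0.05). An upward move is called an effect that grew in what follows, and a downward move one that shrank. The sign is kept, so an effect that moved further below DMSO also counts as one that shrank. Over all 17218 genes tested, 10.0% passed in the higher and 9.82% in the lower direction. The members' median change was 0.44 on the log2 scale per doubling of hours, against -0.01 for all genes.

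The count depended on single libraries. Without the DMSO library of 48 h, 1 of 38 members was called, and without the DMSO library of 12 h, the olaparib library of 48 h or the talazoparib library of 48 h 13, 13 and 14 were called. In the same order these fits called 1.51, 10.8, 7.09 and 11.7% of all genes, against 19.8% in the main fit. The members' median without the DMSO library of 48 h was 0.25. In that fit the inhibitor libraries of 48 h had no control, so the change is that from 12 to 24 h. Without the DMSO library of 12 h it is likewise that from 24 to 48 h. The values below without the DMSO library of 48 h thus cover a shorter interval. All 24 called members kept a value above 0 there, from 0.03 to 1.20, and for 17 of them it was over 1.5 times smaller, for example 0.12 for *CTSD*, 0.15 for *CTSA*, 0.03 for *CTSB*, 0.09 for *GM2A* and *NPC2*, 0.27 for *GAA*, 0.34 for *ASAH1*, 0.31 for *NEU1*, 0.54 for *TFEB*, 0.47 for *MCOLN1* and 1.20 for *ACP5*. In none of the alternatives was a member called with an effect that shrank. At an unadjusted p under 0.05, 27 members were higher and 0 lower, where 5251 of all 17218 genes tested passed in either direction.

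For the mean over the time points, 1 of 39 members was called, *LIPA*, the lysosomal acid lipase, with a log2 fold change of 0.83 ± 0.19 (SE, adjusted p = 0.0498), and 0 were lower. *LIPA* passed in 8 of 21 alternatives. Over all genes 3.16% were called higher and 1.01% lower, so the members' count was no larger than the background. At an unadjusted p under 0.05, 25 members were higher and 0 lower, where 6047 of all 17218 genes tested passed in either direction. The median over the members was 0.49 against -0.01 over all genes, and 37 of 39 estimates were positive. Without the DMSO library of 48 h, which leaves the inhibitor libraries of 48 h without a control, the members' median was 0.22. Without all 48 h libraries it was 0.23. DESeq2 called 15 members higher and 0 lower, and edgeR without the filter on low counts called 18. These fits called 20.2 and 11.2% of all genes, against 4.17% in the main fit. Leaving out single libraries or time points gave 0 to 23 members. The 23 came without the DMSO library of 12 h, where 27.6% of all genes were called. The count was 0 without, among others, the 24 h libraries, where 0 of all genes were called.

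**Figure D3:**
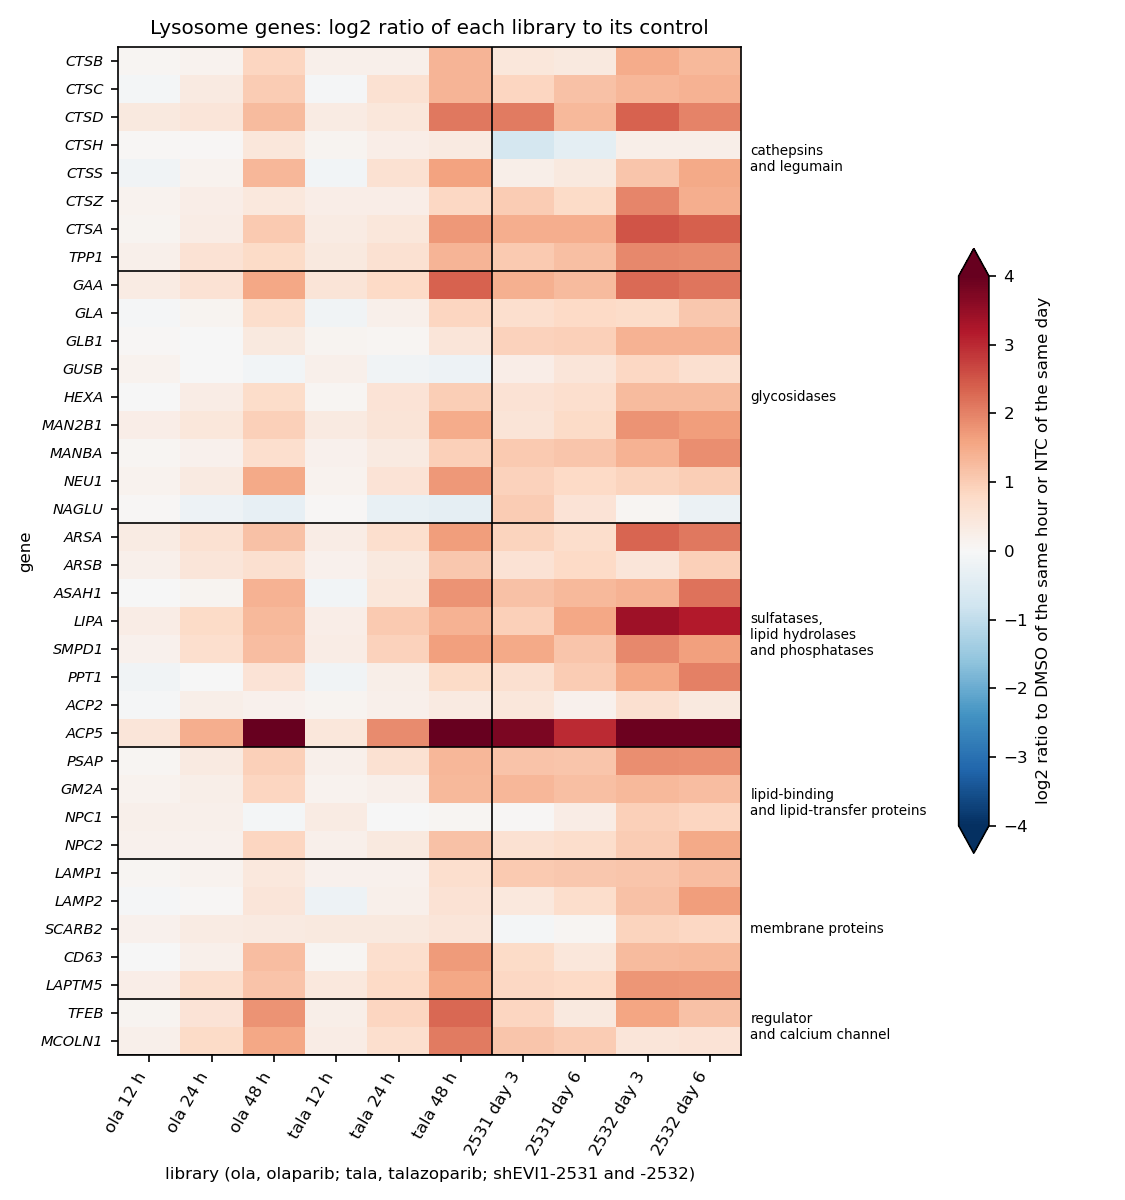
Log2 ratio of each treated library to DMSO of the same hour or NTC of the same day for 36 lysosome genes (all but CTSK, CTSL, LGMN and CD68), grouped by role, with red above and blue below the control. Colours saturate at 4, which ACP5 passes in both inhibitor libraries of 48 h, and the median over the members is 1.31 with talazoparib at 48 h and 1.40 with shEVI1-2532 on day 6.

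To ask what loss of *EVI1* did to the same genes, each shRNA was compared with NTC with the day as a block. With shEVI1-2532, 35 of 39 members rose and 0 fell, where 21.2% of the 18606 genes tested were higher and 19.9% lower. The 35 include *CD68*, which passed the count filter of this fit only through shRNA libraries. At an unadjusted p under 0.05 the count was also 35 higher and 0 lower, where 9177 of the 18606 genes passed in either direction. DESeq2 called 34 higher and 0 lower, and 37.8% of all genes. The members' median log2 fold change was 1.38, against 0.00 for all genes. With shEVI1-2531, 30 rose and 1, *CTSH*, fell, where 9.49% of all genes were higher and 7.90% lower, and the median was 0.81. Without the day as a block, 30 and 6 members were called with shEVI1-2532 and shEVI1-2531, and with both shRNAs as 1 group 7 were. In the same order 19.0, 3.04 and 1.66% of all genes were called.

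The shRNAs differed from each other for 25 of 39 members, with 23 higher with shEVI1-2532 and 2, *NAGLU* and *MCOLN1*, higher with shEVI1-2531. Over all genes 12.2% were higher and 12.0% lower in that test. Without the day as a block 2 members passed, and 4.95% of all genes. *MECOM* was lowered more by shEVI1-2532, with log2 fold changes of -3.04 ± 0.21 and -1.34 ± 0.19 (SE) with shEVI1-2532 and shEVI1-2531, and a difference of -1.70 ± 0.20 (SE, adjusted p = 0.000138). Whether the larger changes of the lysosome genes follow from this was not tested.

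**Figure D4:**
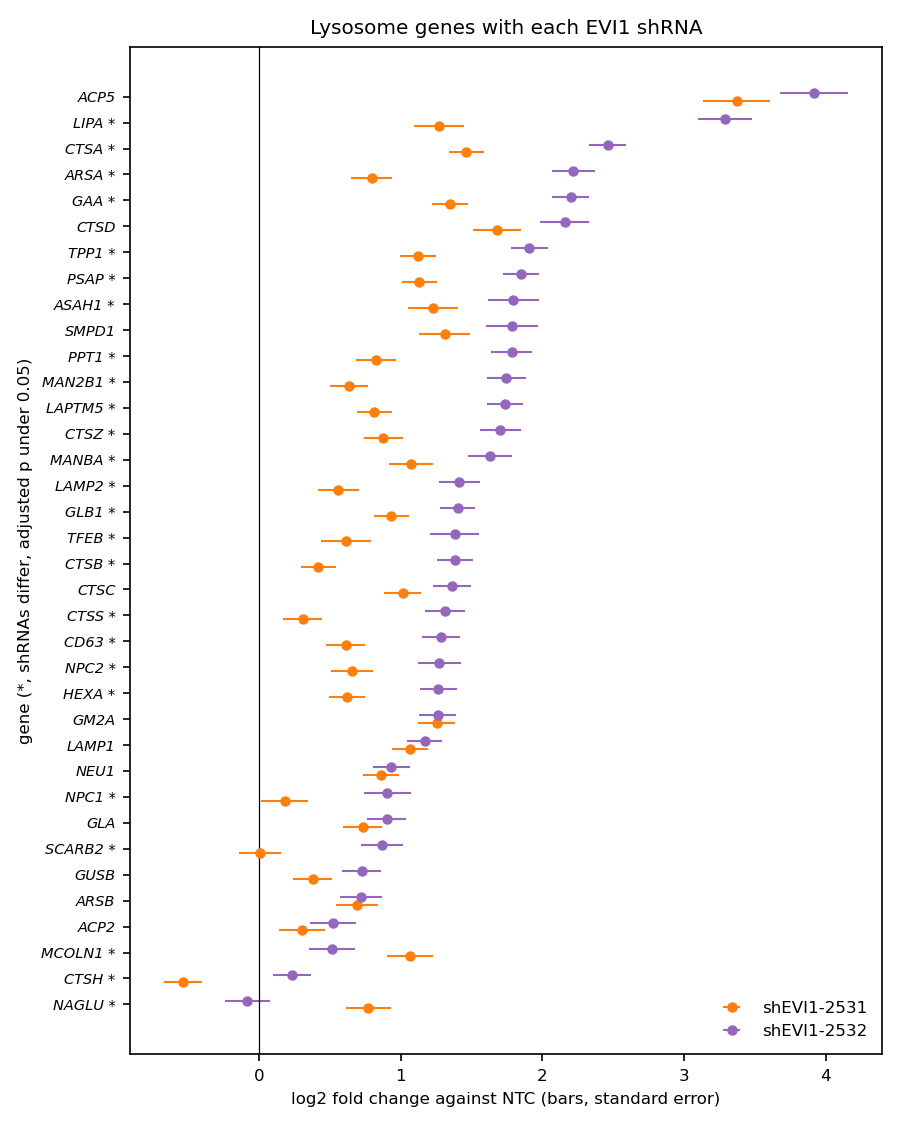
Log2 fold change against NTC with shEVI1-2531 (orange) and shEVI1-2532 (purple) for the same 36 lysosome genes, ordered by the shEVI1-2532 value, with bars for the standard error from 6 libraries. ACP5 stands farthest right with both shRNAs, and for most genes marked with an asterisk the shEVI1-2532 point lies to the right.

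Some monocyte markers were higher in the same libraries and some lower. All 10 genes of a monocyte and macrophage list were detected, and their summed level ran over the time points from 629 to 947 CPM with DMSO, 652 to 2429 with olaparib and 786 to 4231 with talazoparib. In the knockdown it ran from 651 to 874 CPM with NTC, 1400 to 1653 with shEVI1-2531 and 4780 to 6241 with shEVI1-2532. *LYZ* made up most of the sum in the shRNA libraries, with 1065 and 1028 CPM with shEVI1-2531 and 3913 and 5230 with shEVI1-2532, but not with NTC, where it was at 206 and 183 CPM and *MRC1* at 265 and 349.6. *CSF1R* and *MRC1* went the other way in several libraries. At 48 h *CSF1R* was at 241 CPM with DMSO, 161 with olaparib and 158 with talazoparib, and *MRC1* at 291, 216 and 210.1. With shEVI1-2531 *CSF1R* was at 93.1 and 189.5 CPM against 128 and 269.7 with NTC, and *MRC1* at 135 and 256. *CD163* held 0 counts in at least 1 library. Progenitor markers, 7 of 7 detected, summed to 507 to 1039 CPM with NTC, 194 to 236 with shEVI1-2531 and 53.1 to 77.0 with shEVI1-2532. They summed to 569 to 730 CPM with DMSO, 337 to 633 with olaparib and 205 to 753 with talazoparib. The 7 include *MECOM*, the target of the shRNAs, and *CD34* made up most of the NTC sum, at 303 and 765 CPM. *KIT* went the other way in some libraries, with 44.1 CPM with shEVI1-2531 against 22.2 with NTC on day 6. Of 6 epithelial markers 2 were detected and *KRT17* gave nearly all of their sum, which ran from 121 to 154 CPM with DMSO, 176 to 873 with talazoparib, 275 to 321 with NTC and 877 to 999 with shEVI1-2532, while *CDH1* and *KRT5* stood at or near 0. The part of these shifts in the lysosome values was not tested. In bulk RNA, more cells of a type and more RNA of a gene per cell cannot be told apart.

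Among the cathepsins and legumain, 6 of the 10 tested had an effect of PARPi that grew with time, 7 rose with shEVI1-2532 and 6 rose and 1 fell with shEVI1-2531. *CTSD* was at 203, 183 and 119 CPM with DMSO at 12, 24 and 48 h, at 261, 259 and 250.9 with olaparib and at 252, 245 and 424 with talazoparib. DMSO was lower at each later time point, olaparib stayed nearly level, and talazoparib at 48 h stood above all other libraries of the experiment. The change of the effect per doubling of hours was 0.67 ± 0.13 (SE, adjusted p = 1.49e-05). On days 3 and 6 *CTSD* was at 101 and 209 CPM with NTC, 380.1 and 452 with shEVI1-2531 and 434 and 650.3 with shEVI1-2532. The knockdown libraries did not overlap NTC, with log2 fold changes of 1.68 ± 0.17 (SE, adjusted p = 7.5e-05) and 2.16 ± 0.17 (SE, adjusted p = 2.5e-06) for shEVI1-2531 and shEVI1-2532, and the difference between the shRNAs did not pass (adjusted p = 0.0568 by edgeR).

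*CTSA*, the carboxypeptidase that protects the sialidase *NEU1* and the beta-galactosidase *GLB1* in a complex, was at 124, 105 and 73.02 CPM with DMSO, 132, 131 and 132 with olaparib and 154, 140.4 and 203 with talazoparib at 12, 24 and 48 h. It was at 68.9 and 106 CPM with NTC, 169 and 261 with shEVI1-2531 and 333 and 437 with shEVI1-2532 on days 3 and 6. Each treated library was above its control. Its log2 fold change was 2.46 ± 0.13 (SE, adjusted p = 1.76e-07) with shEVI1-2532 and 1.46 ± 0.13 (SE, adjusted p = 2.65e-05) with shEVI1-2531, and these differed by 1.00 ± 0.13 (SE, adjusted p = 0.000201). In the PARPi experiment the effect changed by 0.59 ± 0.13 (SE, adjusted p = 0.000187) per doubling of hours.

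*CTSS*, which trims the invariant chain of MHC class II in antigen-presenting cells, differed from *CTSD* in that DMSO cells also gained it. It was at 71.8, 89.2 and 119 CPM with DMSO, 64.4, 98.98 and 265 with olaparib and 66.4, 134 and 301 with talazoparib. At 12 h both inhibitors were below DMSO, with log2 ratios of -0.14 and -0.10, and at 48 h both were above, at 1.34 and 1.61. The effect changed by 0.80 ± 0.13 (SE, adjusted p = 8.61e-08) per doubling. On days 3 and 6 *CTSS* was at 86.5 and 67.05 CPM with NTC, 90.2 and 78.4 with shEVI1-2531 and 156 and 150.4 with shEVI1-2532. It rose with shEVI1-2532, by 1.31 ± 0.14 (SE, adjusted p = 1.87e-05), and the shRNAs differed by 1.00 ± 0.14 (SE, adjusted p = 0.000384).

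*CTSB*, a cysteine protease, was at 232, 212 and 179 CPM with DMSO, 241, 237 and 288 with olaparib and 266, 240.5 and 385 with talazoparib. The treated libraries were above DMSO at each time point, by little at 12 and 24 h and by 1.83-fold and 2.58-fold with olaparib and talazoparib at 48 h. It was at 159 and 221 CPM with NTC, 193 and 258 with shEVI1-2531 and 369.5 and 423 with shEVI1-2532. The lower shEVI1-2531 value fell inside the range of the NTC libraries, yet each was above NTC of its day, with a log2 fold change of 0.42 ± 0.12 (SE, adjusted p = 0.037), against 1.38 ± 0.13 (SE, adjusted p = 6.14e-06) with shEVI1-2532. The call with shEVI1-2531 held in 6 of 16 alternatives and was lost when any of the NTC or shEVI1-2531 libraries was left out.

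*CTSH*, an aminopeptidase cathepsin, went another way. It was at 287 and 245 CPM with NTC on days 3 and 6, 159 and 167 with shEVI1-2531 and 285 and 225 with shEVI1-2532. The shEVI1-2531 libraries were the lowest and did not overlap the others, with a log2 fold change of -0.53 ± 0.13 (SE, adjusted p = 0.0159). This call held in 9 of 16 alternatives and was lost without either NTC library or without the shEVI1-2531 library of day 3. With shEVI1-2532 the estimate was 0.23 ± 0.13 (adjusted p = 0.178 by edgeR), and the shRNAs differed by 0.77 ± 0.13 (SE, adjusted p = 0.00151). In the PARPi experiment *CTSH* was at 211, 221 and 267 CPM with DMSO, 216, 232 and 322 with olaparib and 226, 259.7 and 285 with talazoparib, higher at later hours in all arms, and neither the mean effect (adjusted p = 0.189 by edgeR) nor its change with time (adjusted p = 0.415) passed.

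Of the remaining members of this group, *CTSK* and *LGMN* were too low in counts to be described and passed no test. The others were *CTSC*, a dipeptidyl peptidase that activates serine proteases of granules, the carboxypeptidase *CTSZ* and the tripeptidyl peptidase *TPP1*. All 3 rose with both shRNAs, between 0.88 and 1.12 on the log2 scale with shEVI1-2531 and between 1.36 and 1.91 with shEVI1-2532. For *CTSC* and *TPP1* the PARPi effect also grew with time, by 0.63 and 0.38 per doubling of hours, calls that held in 14 and 8 of 16 alternatives. *CTSZ* became lower in the DMSO arm from 12 to 48 h, from 137 to 84.5 CPM, and was at 126 CPM with talazoparib at 48 h.

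Of the 9 glycosidases, 5 had an effect of PARPi that grew with time, 8 rose with each shRNA, and 0 fell in any of the 4 tests against a control. *GAA*, the acid alpha-glucosidase that breaks down glycogen, was at 37.4, 35.2 and 35.4 CPM with DMSO, 46.8, 53.7 and 90.9 with olaparib and 52.8, 59.9 and 152 with talazoparib. All 6 inhibitor libraries were above all 3 DMSO libraries, and the talazoparib library of 48 h stood 5.17-fold above its control. The effect changed by 0.77 ± 0.14 (SE, adjusted p = 5.4e-07) per doubling of hours. In the knockdown *GAA* was at 39.2 and 76.1 CPM with NTC, 93.5 and 164 with shEVI1-2531 and 158 and 263 with shEVI1-2532. Its level was higher on day 6 than on day 3 in each arm, NTC included, and the log2 fold changes were 1.35 ± 0.13 (SE, adjusted p = 5.48e-05) and 2.20 ± 0.13 (SE, adjusted p = 3.5e-07) with shEVI1-2531 and shEVI1-2532.

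*NEU1*, the sialidase, was at 80.2, 84.6 and 84.9 CPM with DMSO, 87.7, 109 and 214 with olaparib and 87.5, 122 and 237 with talazoparib. DMSO was level over the time course and the inhibitor libraries climbed away from it, with a change of 0.75 ± 0.13 (SE, adjusted p = 7.9e-07) per doubling. With NTC it was at 80.6 and 71.7 CPM, with shEVI1-2531 at 136 and 111 and with shEVI1-2532 at 126 and 110.2. Its log2 fold changes of 0.86 ± 0.13 (SE, adjusted p = 0.000849) and 0.93 ± 0.13 (SE, adjusted p = 0.000128) were those of shEVI1-2531 and shEVI1-2532, with a difference of 0.07 ± 0.13 (SE, adjusted p = 0.721 by edgeR).

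*GUSB*, the beta-glucuronidase, and *NAGLU*, which removes N-acetylglucosamine from heparan sulfate, were the members with a TMM-scaled ratio below DMSO in all 4 inhibitor libraries of 24 and 48 h. *GUSB* was at 112, 113 and 100.2 CPM with DMSO, 121, 113 and 81.6 with olaparib and 128, 100.0 and 72.6 with talazoparib, *NAGLU* at 45.6, 43.4 and 35.9, 47.01, 38.4 and 25.1 and 47.1, 34.96 and 23.1. For *GUSB* the olaparib library of 24 h equalled DMSO in CPM, with a log2 ratio of -0.02. At 48 h their log2 ratios to DMSO were -0.20 (95% interval -0.26 to -0.14) and -0.37 (95% interval -0.47 to -0.27) with talazoparib, intervals that cover counting error only. For *GUSB* the change of the effect with time was -0.16 ± 0.13 (SE, adjusted p = 0.443 by edgeR) and for *NAGLU* -0.20 ± 0.13 (SE, adjusted p = 0.308), and neither passed. After the knockdown *GUSB* was at 87.9 and 105 CPM with NTC, 93.8 and 131 with shEVI1-2531 and 129 and 127 with shEVI1-2532, and it rose with shEVI1-2532 by 0.73 ± 0.14 (SE, adjusted p = 0.00134).

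*NAGLU* was at 29.5 and 52.02 CPM with NTC, 52.8 and 67.2 with shEVI1-2531 and 26.1 and 34.7 with shEVI1-2532. The shEVI1-2531 libraries were above NTC of their day, while the shEVI1-2532 libraries had TMM-scaled log2 ratios of 0.08 on day 3 and -0.24 on day 6. It rose with shEVI1-2531 by 0.77 ± 0.16 (SE, adjusted p = 0.00608), its estimate with shEVI1-2532 was -0.08 ± 0.16 (adjusted p = 0.705 by edgeR), and the difference was -0.85 ± 0.16 (SE, adjusted p = 0.00243). The remaining glycosidases, *GLA*, *GLB1*, *HEXA*, *MAN2B1* and *MANBA*, which cleave galactose, hexosamine and mannose from glycans and glycolipids, rose with both shRNAs, between 0.62 and 1.07 with shEVI1-2531 and between 0.90 and 1.74 with shEVI1-2532. Of these, *GLA*, *HEXA* and *MAN2B1* also had an effect of PARPi that grew with time, by 0.41 to 0.45 per doubling. These calls held in 11, 8 and 9 of 16 alternatives.

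The 8 sulfatases, lipid hydrolases and phosphatases included *ACP5* and *LIPA*, the members with the largest changes with shEVI1-2532. With shEVI1-2532 8 of 8 rose, with shEVI1-2531 7, and the effect of PARPi grew with time for 6. *ACP5*, the tartrate-resistant acid phosphatase known from osteoclasts and macrophages, was at 16.1, 5.89 and 3.22 CPM with DMSO, 22.4, 16.3 and 48.7 with olaparib and 21.8, 21.5 and 74.8 with talazoparib. DMSO cells lost most of it by 48 h while cells with an inhibitor gained it, so that the 48 h libraries stood 17.2-fold and 27.9-fold above DMSO. Part of that distance was the fall in DMSO, with a log2 ratio of 48 h to 12 h of -2.30 (95% interval -2.52 to -2.08) with DMSO and 2.06 (95% interval 1.97 to 2.14) with talazoparib. The effect changed by 1.97 ± 0.15 (SE, adjusted p = 4.87e-36) per doubling of hours, and it passed in each of 16 alternatives, with adjusted p of 2.02e-46 to 0.00558.

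In the knockdown *ACP5* was at 1.10 and 1.998 CPM with NTC, 13.2 and 13.98 with shEVI1-2531 and 13.98 and 23.7 with shEVI1-2532. Each knockdown library was several times above both NTC libraries, with log2 fold changes of 3.37 ± 0.24 (SE, adjusted p = 6.95e-06) and 3.91 ± 0.24 (SE, adjusted p = 4.51e-07). The shRNAs did not differ past the threshold (adjusted p = 0.0817 by edgeR). Its whole span lies within *ZNF627*, a gene on the opposite strand, which held 1294 to 5503 counts per library.

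*LIPA*, which hydrolyses cholesteryl esters and triglycerides taken up with lipoproteins, was at 97.96, 117 and 107 CPM with DMSO, 119.7, 201 and 231 with olaparib and 117, 239 and 235 with talazoparib. It was above DMSO at each time point, and the inhibitor libraries of 24 and 48 h did not overlap any DMSO library. The change of the effect with time was 0.53 ± 0.13 (SE, adjusted p = 0.0006). *LIPA* was at 81.7 and 52.6 CPM with NTC on days 3 and 6, 140.4 and 137 with shEVI1-2531 and 722 and 369 with shEVI1-2532, lower on day 6 than on day 3 in all arms. It rose by 3.29 ± 0.19 (SE, adjusted p = 2.82e-07) with shEVI1-2532 and by 1.27 ± 0.18 (SE, adjusted p = 0.000556) with shEVI1-2531, and the difference of 2.02 ± 0.18 (SE, adjusted p = 2.87e-05) was the largest between the shRNAs among the members. Its span in the count tables also holds the interferon-induced genes *IFIT1*, *IFIT2* and *IFIT3* on the opposite strand, which held 70 to 16296, 220 to 4935 and 874 to 14700 counts per library. Their part in the *LIPA* values was not tested.

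*ARSA*, which removes sulfate from sulfatide, was at 19.98, 18.8 and 17.9 CPM with DMSO, 24.9, 29.03 and 35.7 with olaparib and 24.3, 29.2 and 46.9 with talazoparib, all inhibitor libraries lying above all DMSO libraries. With NTC it was at 17.7 and 26.4 CPM, with shEVI1-2531 at 29.3 and 38.2 and with shEVI1-2532 at 75.2 and 89.0. It rose more with shEVI1-2532, by 2.22 ± 0.15 (SE, adjusted p = 7.86e-07), than with shEVI1-2531, by 0.80 ± 0.14 (SE, adjusted p = 0.00277), and the difference passed at 1.42 ± 0.15 (SE, adjusted p = 6.1e-05). The effect of PARPi changed by 0.55 ± 0.14 (SE, adjusted p = 0.000666) per doubling.

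*ASAH1*, the acid ceramidase, was at 64.9, 83.3 and 84.1 CPM with DMSO, 63.3, 90.6 and 195 with olaparib and 59.6, 112 and 243 with talazoparib. There was no gain at 12 h, with log2 ratios of -0.02 and -0.11 with olaparib and talazoparib, and a large one at 48 h, with 1.40 and 1.80. The change per doubling was 0.83 ± 0.14 (SE, adjusted p = 3.06e-08). On days 3 and 6 *ASAH1* was at 65.3 and 50.5 CPM with NTC, 132 and 109 with shEVI1-2531 and 144 and 179 with shEVI1-2532, with log2 fold changes of 1.23 ± 0.18 (SE, adjusted p = 0.000644) and 1.80 ± 0.18 (SE, adjusted p = 1.15e-05).

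The acid sphingomyelinase *SMPD1* and *PPT1*, which removes palmitate from proteins, rose with both shRNAs, by 1.31 and 0.82 with shEVI1-2531 and by 1.78 and 1.78 with shEVI1-2532. Their PARPi effects grew by 0.61 and 0.40 per doubling, calls that held in 13 and 8 of 16 alternatives. The sulfatase *ARSB* rose with both shRNAs by 0.69 and 0.72, and *ACP2*, the acid phosphatase found in most tissues, rose by 0.52 with shEVI1-2532, a call that held in 8 of 16 alternatives and was lost without the NTC library of day 3 or either shEVI1-2532 library. *ACP2* lay between 18.2 and 30.8 CPM over all libraries.

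All 4 lipid-binding or lipid-transfer proteins rose with shEVI1-2532 and 3 with shEVI1-2531. *PSAP*, whose saposins help sphingolipid hydrolases to reach their substrates, rose by 1.85 and 1.13 with shEVI1-2532 and shEVI1-2531, and *GM2A*, the activator that presents ganglioside to hexosaminidase, by 1.26 and 1.26. *NPC2*, which hands cholesterol to *NPC1*, rose by 1.27 and 0.66. The membrane transporter *NPC1* rose with shEVI1-2532 by 0.91, and the shRNAs differed for it by 0.72 ± 0.16 (SE, adjusted p = 0.00745). The PARPi effect on *PSAP*, *GM2A* and *NPC2* grew by 0.42 to 0.50 per doubling of hours, calls that held in 12, 10 and 8 of 16 alternatives.

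Among the 6 membrane proteins, all rose with shEVI1-2532, *CD68* with the limit given below, and 4 with shEVI1-2531. For 2, *CD63* and *LAPTM5*, the effect of PARPi grew with time. *LAMP1* was at 274, 268 and 186 CPM with DMSO, 287, 301 and 219.6 with olaparib and 307, 293 and 249 with talazoparib at 12, 24 and 48 h. It stood above DMSO at each time point, yet in CPM all arms were lower at 48 h than at 12 h. With TMM scaling, the log2 ratio of 48 h to 12 h was -0.53 with DMSO, -0.19 with olaparib and -0.02 with talazoparib. *LAMP1* thus stayed nearly level with talazoparib, and the effect's change with time did not pass (adjusted p = 0.268 by edgeR). With NTC it was at 155 and 211 CPM, with shEVI1-2531 at 284 and 399.6 and with shEVI1-2532 at 278 and 391. It rose by 1.07 ± 0.12 (SE, adjusted p = 0.000167) with shEVI1-2531 and 1.17 ± 0.12 (SE, adjusted p = 1.84e-05) with shEVI1-2532, with a difference of 0.10 ± 0.12 (SE, adjusted p = 0.587 by edgeR).

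*LAMP2*, its relative and a receptor in chaperone-mediated autophagy, was at 133, 171 and 179.7 CPM with DMSO, 127, 180.3 and 220.4 with olaparib and 115, 192 and 222 with talazoparib. At 12 h both inhibitors lay below DMSO and at 48 h both above, and the change with time did not pass (adjusted p = 0.0636 by edgeR). It was at 135 and 86.2 CPM with NTC, 161 and 126 with shEVI1-2531 and 253 and 216 with shEVI1-2532. The gain was 0.56 ± 0.14 (SE, adjusted p = 0.0187) with shEVI1-2531 and 1.41 ± 0.15 (SE, adjusted p = 1.42e-05) with shEVI1-2532, and the shRNAs differed, by 0.86 ± 0.14 (SE, adjusted p = 0.0013). The call with shEVI1-2531 held in 9 of 16 alternatives and was lost without the NTC library of day 6 or the shEVI1-2531 library of day 3.

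*CD63*, a tetraspanin of late endosomes and lysosomes, was at 252, 285 and 279 CPM with DMSO, 248, 337 and 582 with olaparib and 262.1, 448 and 762 with talazoparib. DMSO changed little, both inhibitors were higher at each later time point, and the effect changed by 0.73 ± 0.13 (SE, adjusted p = 1.44e-06) per doubling. It was at 295 and 274 CPM with NTC, 449.6 and 330.1 with shEVI1-2531 and 597 and 529 with shEVI1-2532, all knockdown libraries lying above both NTC libraries, with log2 fold changes of 0.61 ± 0.13 (SE, adjusted p = 0.00866) and 1.28 ± 0.14 (SE, adjusted p = 1.78e-05). *LAPTM5* rose by 0.81 and 1.74 with shEVI1-2531 and shEVI1-2532 and its PARPi effect grew by 0.49 per doubling. *SCARB2*, the receptor that brings glucocerebrosidase to lysosomes, rose with shEVI1-2532 by 0.87 and differed between the shRNAs by 0.86 ± 0.15 (SE, adjusted p = 0.00156).

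*CD68*, the macrosialin of macrophages, was at 0.0414 and 0.0367 CPM with NTC, 0.157 and 0.149 with shEVI1-2531 and 0.0897 and 0.248 with shEVI1-2532, and in the PARPi experiment at 0.077, 0.11 and 0.173 with DMSO, 0.0793, 0.238 and 0.133 with olaparib and 0.182, 0.0862 and 0.161 with talazoparib. The inhibitor libraries overlapped the DMSO libraries. The test with shEVI1-2532 passed, at 2.31 ± 0.73 (SE, adjusted p = 0.0235), on 4 to 25 counts per library, and in 9 of 15 alternatives. *CD68* passed the count filter of the knockdown fit only through shRNA libraries. It held 15 and 17 counts with shEVI1-2531 and 9 and 25 with shEVI1-2532 on days 3 and 6, against 5 and 4 with NTC. The call is thus no independent sign of a gain.

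For *TFEB* and *MCOLN1* the effect of PARPi grew with time, and both rose with each shRNA. *TFEB* was at 22.04, 13.96 and 9.32 CPM with DMSO, 23.3, 20.5 and 28.7 with olaparib and 25.6, 25.05 and 37.9 with talazoparib, and *MCOLN1* at 25.6, 17.4 and 11.8, 29.4, 30.2 and 30.3 and 31.4, 27.2 and 41.7. For both genes the arms were close at 12 h, DMSO was lower at each later time point, and all inhibitor libraries of 48 h stood above all DMSO libraries. The effects changed by 0.94 ± 0.14 (SE, adjusted p = 1.11e-09) for *TFEB* and 0.77 ± 0.14 (SE, adjusted p = 6.02e-07) for *MCOLN1* per doubling of hours. The corresponding mean effects over the time course, 0.89 ± 0.30 and 0.89 ± 0.27 (SE), did not pass (adjusted p = 0.0844 and 0.069 by edgeR).

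*TFEB* was at 12.2 and 23.1 CPM with NTC, 19.5 and 26.9 with shEVI1-2531 and 30.7 and 41.2 with shEVI1-2532. Its NTC level on day 6 was above its shEVI1-2531 level on day 3, while within a day the order NTC, shEVI1-2531, shEVI1-2532 held. It rose by 0.61 ± 0.17 (SE, adjusted p = 0.0291) and 1.38 ± 0.18 (SE, adjusted p = 6.66e-05), and the difference passed, at 0.77 ± 0.17 (SE, adjusted p = 0.00733). The call with shEVI1-2531 held in 9 of 16 alternatives and was lost without the NTC or shEVI1-2531 library of day 3. *MCOLN1* was at 11.1 and 21.3 CPM with NTC, 21.6 and 38.2 with shEVI1-2531 and 13.1 and 24.5 with shEVI1-2532. Here the higher libraries of each day were those of shEVI1-2531, with a gain of 1.07 ± 0.16 (SE, adjusted p = 0.00097) against 0.52 ± 0.16 (SE, adjusted p = 0.0233) with shEVI1-2532 and a difference of -0.55 ± 0.16 (SE, adjusted p = 0.028). The call with shEVI1-2532 held in 7 of 16 alternatives, with values of 0.21 to 0.82, and was lost when any of the NTC or shEVI1-2532 libraries was left out. The difference held in 8 of 13, with values of -0.68 to -0.48. It was lost without the shEVI1-2531 library of day 3 or either shEVI1-2532 library.

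**Figure D5:**
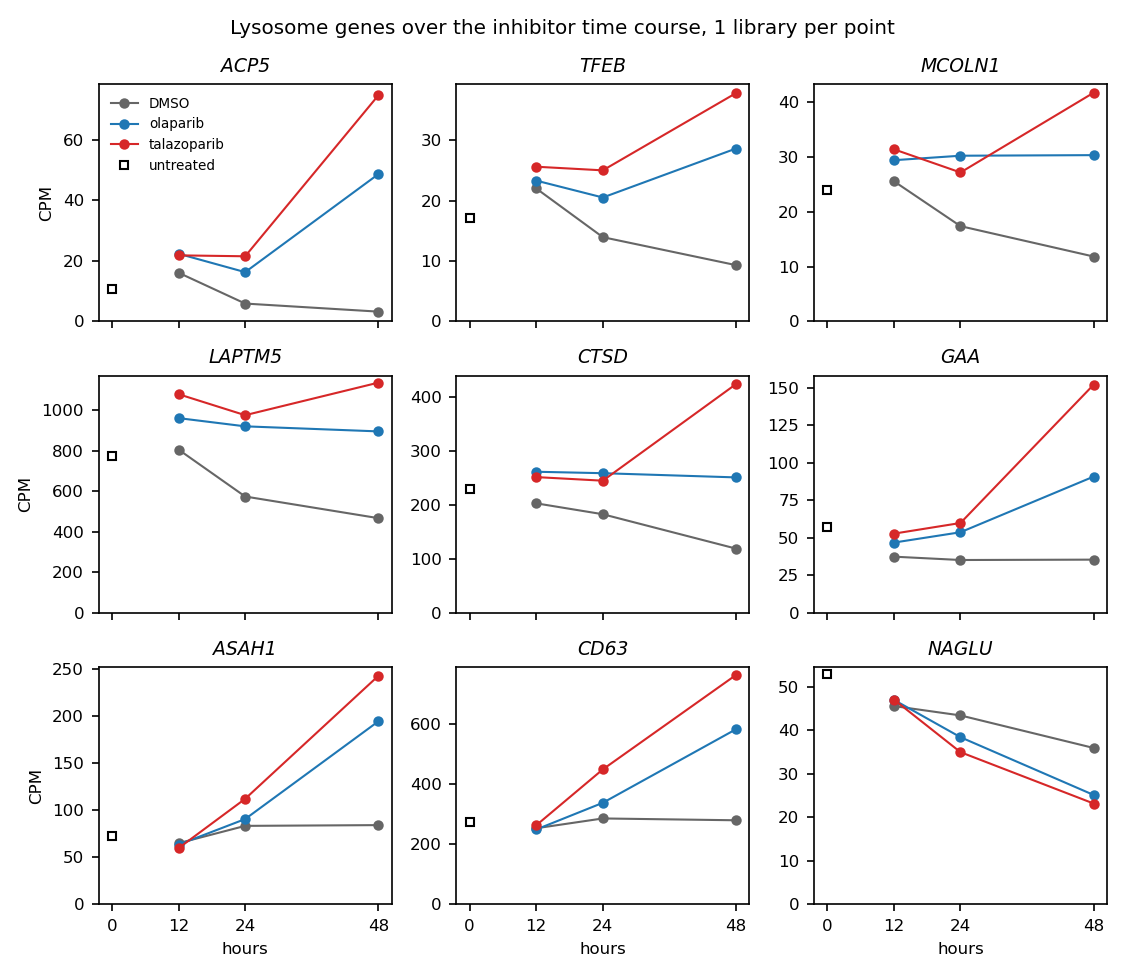
CPM of 9 lysosome genes at 12, 24 and 48 h with DMSO (grey), olaparib (blue) and talazoparib (red) and in the untreated library at 0 h (open square), with 1 library per point and no error bars since no condition has a replicate. DMSO falls for ACP5, TFEB, MCOLN1, LAPTM5 and CTSD, ASAH1 and CD63 climb with the inhibitors, and NAGLU falls in all arms.

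The matched controls themselves moved, and the inhibitor effect is a distance from them. From 12 to 48 h the median log2 ratio of the 39 members was -0.13 with DMSO, 0.57 with olaparib and 0.84 with talazoparib, while the medians of all genes lay near 0. With DMSO, 21 members had an interval below 0 and 14 above it, with olaparib 6 and 30, and with talazoparib 4 and 30. At this depth an interval of counting error can leave out 0 for small changes. The share over all genes was not counted, so these counts are no result about the members. With DMSO the log2 ratio was -1.22 (95% interval -1.36 to -1.08) for *TFEB* and -1.09 (95% interval -1.21 to -0.96) for *MCOLN1*, while with olaparib they were 0.49 (95% interval 0.39 to 0.59) and 0.24 (95% interval 0.15 to 0.33). *LAPTM5* was -0.76 (95% interval -0.78 to -0.74) with DMSO and 0.09 (95% interval 0.08 to 0.11) with olaparib, so most of its growing distance lay in the control. For *CD63* it lay in the treated cells, with 0.17 (95% interval 0.14 to 0.20) with DMSO and 1.42 (95% interval 1.40 to 1.45) with olaparib, and for *ASAH1* with 0.40 (95% interval 0.34 to 0.46) and 1.82 (95% interval 1.76 to 1.87). These are ratios of single libraries, and no test across samples was run on them.

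The experiments have separate controls. All 24 members whose PARPi effect grew with time were also called higher with shEVI1-2532, which is 100.0% of the 24 and 68.6% of the 35 called there. With 35 of 39 members called, most of this overlap is given by that count alone. Over the 17021 genes tested in both fits, 1252 were called in both, 73.0% of the 1714 that grew with time and 33.3% of the 3763 higher with shEVI1-2532. The 11 called only with shEVI1-2532 were *CTSZ*, *LAMP1*, *LAMP2*, *GLB1*, *GUSB*, *MANBA*, *ARSB*, *NPC1*, *SCARB2*, *CD68* and *ACP2*. *CTSH*, *CTSK*, *LGMN* and *NAGLU* were called in neither. That 11 genes passed in the knockdown only does not show that the experiments differ for them, which was not tested. Members with the promoter motif and those without it had medians of 1.17 and 1.38 with shEVI1-2532, 1.07 and 0.81 with shEVI1-2531, and 0.67 and 0.42 per doubling of hours for PARPi, over 7 and 21 genes.

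Lists of further genes of the organelle were counted in the same fits, against the percentages over all genes given above. Of 36 other lysosomal hydrolases tested, 12 had a PARPi effect that grew with time and 3 one that shrank, 25 rose and 4 fell with shEVI1-2532, and 17 rose and 1 fell with shEVI1-2531. Their median log2 fold change was 1.04 with shEVI1-2532 and 0.52 with shEVI1-2531. Of 20 subunits of the V-ATPase, the proton pump, 11 grew and 1 shrank with time under PARPi, 12 rose and 2 fell with shEVI1-2532, and 11 rose and 1 fell with shEVI1-2531. Of 35 further membrane proteins and transporters 10 grew and 0 shrank with time, 18 rose and 2 fell with shEVI1-2532, and 9 rose and 0 fell with shEVI1-2531. Of 7 cystatins and other inhibitors of proteases 4 grew and 0 shrank, 5 rose and 1 fell, and 3 rose and 0 fell.

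Genes around the lysosome were counted likewise. Of 28 genes for the sorting of lysosomal enzymes, such as the mannose-phosphate receptors and retromer, 3 grew and 1 shrank with time under PARPi, 12 rose and 2 fell with shEVI1-2532, and 7 rose and 1 fell with shEVI1-2531, with medians of 0.06, 0.21 and 0.18. Of 23 MiT/TFE factors and nutrient-sensing genes 7 grew and 0 shrank, 13 rose and 2 fell, and 6 rose and 1 fell, with medians of 0.22, 0.47 and 0.21. Of 29 autophagy genes 5 grew and 0 shrank, 8 rose and 3 fell, and 5 rose and 2 fell, with medians of 0.15, 0.10 and 0.09. For the mean PARPi effect, between 0 and 3 genes of each list were called higher and 0 lower.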

How the data were processed

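RNA-Seq of 16 MUTZ-3 libraries was analysed. The authors deposited raw counts per gene, and the submitters' processing notes name STAR, Picard, featureCounts and GRCh38 (hg38). The TPM that the authors also deposited were computed over the whole span of each gene and were used only as a check. Gene coordinates are those of the files, and exon lengths are from GENCODE 29. The members and lists were chosen with earlier results of these data known. The names of the tables give another number for shEVI1-2531, and the sample labels were followed.

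A gene was fitted if it held 10 counts or more in 3 or more of 9 libraries (PARPi, the untreated library left out) or in 2 or more of 6 (knockdown), with edgeR 4.0.16 (R 4.3.3, TMM normalization, quasi-likelihood test). The PARPi model held the time point and a coefficient per inhibitor (4 residual degrees of freedom), and a further one a slope of each on log2 hours (2). The knockdown model held the day and a coefficient per shRNA (2). The blocks are the time points and days of the labels. P-values were adjusted after Benjamini-Hochberg over all genes tested. Ratios of single libraries used TMM library sizes, with exact 95% binomial intervals that cover counting error only. The limit that 0 counts allow, 3 counts, corresponded to 0.0249 to 0.0536 CPM. SE is the log2 fold change over the root of the F statistic. For the change with time the SE was nearly the same for well-counted members, such as 0.131 for *CTSH*, 0.133 for *CTSB* and 0.136 for *GAA*. Those p-values thus rest mainly on a spread shared over genes and not on the 2 degrees of freedom of 1 gene. Steps were tested on simulated data.

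Values in every library were given for the 4 called members with the largest change per direction in each of the 4 effects against a control, for 10 members chosen by name (*LAMP1*, *LAMP2*, *CD63*, *CD68*, *TFEB*, *MCOLN1*, *CTSD*, *CTSB*, *GUSB*, *NEU1*), and for members with opposite signs between the shRNAs. *ARSA*, next in order with shEVI1-2532, was added after its values were seen. Alternatives were DESeq2 1.42.0, upper quartile normalization, library totals, other filters, a threshold of 0.01, other designs and left-out libraries.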

Additional observations from a re-analysis of the deposited data

Results flagged for a closer look

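*CTSH* and *NAGLU* stood out because the shRNAs gave estimates of opposite sign and the difference itself passed the test (edgeR's quasi-likelihood test, adjusted over all genes). For *CTSH*, shEVI1-2532 minus shEVI1-2531 was 0.77 ± 0.13 (SE, adjusted p = 0.00151), with -0.53 for shEVI1-2531 and 0.23 for shEVI1-2532. For *NAGLU* it was -0.85 ± 0.16 (SE, adjusted p = 0.00243), with 0.77 and -0.08. In both genes the estimate with shEVI1-2532 did not pass its own test, so only the difference and the shEVI1-2531 values are called. The shEVI1-2531 calls held in 9 of 16 alternatives for *CTSH* and in 11 of 16 for *NAGLU*, and both were lost without the NTC library of day 3 or the shEVI1-2531 library of day 3. The differences held in 12 of 13 for each.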

How the results depend on the processing

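Counts of called members changed as follows. For the mean PARPi effect, 1 member became 3 with upper quartile normalization, 18 with no filter on low counts, 2 with the filter over 16 libraries and 15 with DESeq2. The share of all genes called was 4.17% in the main fit and 5.07, 11.2, 4.38 and 20.2% in these. Both that share and the count of members were higher in each of these than in the main fit. They did not keep the same order, with 18 members at 11.2% and 15 at 20.2%. The number of members became 0 at an adjusted p under 0.01, where 0.105% of all genes were called. It was also 0 without the replicate block (time point), where 0.0929% were called. With olaparib or talazoparib alone against DMSO it was 0 as well, and 0.138 and 0.0240% of all genes were called. With single libraries or time points left out it was 0 to 23. The 24 members with an effect that grew with time became 12 with both inhibitors as 1 group, and 1 to 27 with libraries left out. With both inhibitors as 1 group 5.59% of all genes were called, against 19.8% in the main fit. With both shRNAs as 1 group, the 35 and 31 members called with shEVI1-2532 and shEVI1-2531 became 7 and 7, and 1.66% of all genes were called. Without the replicate block (day), the 31 became 6 and the 25 that differed between the shRNAs became 2. In the same order 3.04 and 4.95% of all genes were called there. The 31 became 14 beyond a log2 fold change of 1, where 7.97% of all genes passed. All other counts stayed within 1.5 times, with 32 to 35, 24 to 33 and 20 to 27 for shEVI1-2532, shEVI1-2531 and their difference when libraries were left out. The cause of the changes was not tested.

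Scaling to library totals alone moved the median of all genes to -0.12 for the change with time, -0.30 for shEVI1-2532 and -0.16 for shEVI1-2531. Of 2230 values of single genes under the alternatives, 13 changed sign, each for a value not called. The 2230 cover members called in the main fit of a test and a set of named members only. Estimates of other members that were not called are not among them. With totals alone *CTSH* with shEVI1-2532 became -0.0657, and the shRNA differences of *LAMP1* and *NEU1* became -0.0302 and -0.0600. With upper quartile normalization the mean PARPi effect on *GUSB* became 0.0113 and with olaparib alone 0.000627. With both shRNAs as 1 group *CTSH* became -0.0990 and *NAGLU* 0.405. With single libraries or time points left out, the mean PARPi effect ran from -0.121 to 0.0384 for *GUSB* and from -0.00826 to 0.322 for *LAMP2*, *NAGLU* with shEVI1-2532 from -0.330 to 0.130, and the shRNA difference of *NEU1* from -0.0426 to 0.154. Where a left-out library leaves a condition in the fit with fewer libraries, the spread is taken from the others. Where the DMSO library of a time point is left out, the inhibitor libraries of that time point have no control.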

Other observations

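The untreated library of 0 h entered no comparison, since no treated library shares its time point. The 40 lysosome genes took 0.560% of its counts. *ACP5* was at 10.8 CPM there, *TFEB* at 17.2, *MCOLN1* at 23.97, *LAPTM5* at 773, *CTSD* at 229 and *LIPA* at 80.7.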
